A study of Mus musculus with 8 samples.

Results

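The UDP-glucuronosyltransferases (UGT) and the cytosolic sulfotransferases (SULT) were compared between livers of miR-93 knockout mice and livers of wild-type mice. All mice were fed a high fat and high fructose diet, labelled 16 weeks, as a model of metabolic dysfunction-associated steatotic liver disease (MASLD), so the wild-type livers carry the diet too. RNA sequencing gave 4 knockout and 4 wild-type libraries, and the design asks what loss of miR-93, a microRNA of the Mcm7 gene, does to liver transcripts. The age, sex and strain of the mice, and whether the deletion was made in all cells, are not given in the sources used here. The labels number the libraries of each group but do not say that each came from its own animal, so the p-values below measure only the spread between these libraries. The members were every protein-coding gene of the deposited count table whose symbol starts with Ugt1a, Ugt2a, Ugt2b, Ugt3a or Sult and a digit. This gave 42 of 56748 genes, 21 UGT genes (9 Ugt1a, 3 Ugt2a, 7 Ugt2b and 2 Ugt3a) and 21 SULT genes (6 Sult1, 9 Sult2 and 6 from Sult3 to Sult6). A further 6 pseudogenes with such symbols were left out, and all had 0 counts.

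UGT enzymes sit in the membrane of the endoplasmic reticulum and attach a sugar, in most cases glucuronic acid taken from UDP-glucuronate, to bilirubin, bile acids, steroids, thyroid hormones and drugs. SULT enzymes work in the cytosol and attach a sulfonate group taken from the donor PAPS to phenols, steroids, catecholamines and bile acids. Both reactions make their substrates more soluble in water, so that they can leave the hepatocyte in bile or blood, and the liver is the organ best known for them.

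Total counts ran from 9187279 to 10966019 in the knockout libraries and from 5085860 to 7451026 in the wild-type libraries. Transcripts of the mitochondrial genome took 8.08% to 15.03% of the counts in knockout and 25.4% to 77.8% in wild type, and the 77.8% belonged to wild-type replicate 4, which had 1131446 counts outside the mitochondrial genome. Depth and mitochondrial share thus separated the groups completely, also without that replicate, and cannot be told apart from genotype. Levels are given below as CPM (counts scaled to a common library size) after TMM scaling, a correction for the make-up of each library, and every count of changed members is also given without that replicate. A count of 0 allowed up to 0.219 to 0.252 CPM in the knockout libraries, up to 0.379 to 0.455 CPM in wild-type replicates 1 to 3 and up to 1.69 CPM in wild-type replicate 4, by counting error alone. The row of the Mir93 gene held 0 counts in all 8 libraries, so it checks no label. Marker counts are to be read against all tested genes, of which 10.4% rose and 10.7% fell (17.8% and 17.5% without wild-type replicate 4). Hepatocyte markers such as Alb and Apoa1 summed to 48963 to 54343 CPM in knockout libraries and 52378 to 66031 CPM in wild-type ones, and 4 of 10 rose while 2 fell (4 and 4 without wild-type replicate 4). Of the other cell types, 6 of 8 sinusoidal endothelial markers rose (94.8 to 195 CPM summed in knockout libraries, 52.1 to 80.4 CPM in wild type, and 7 of 8 without replicate 4), 4 of 8 Kupffer cell markers rose (127 to 157 CPM in knockout libraries, 41.7 to 189 CPM in wild type, and 7 of 8 without replicate 4), and 1 of 3 tested cholangiocyte markers rose (42.2 to 47.3 CPM in knockout libraries, 30.2 to 38.8 CPM in wild type, and 2 of 5 without replicate 4). Of 8 enterocyte markers, the 3 tested rose, also without replicate 4 (766 to 924 CPM in knockout libraries, 174 to 217 CPM in wild type), while Alpi, Cdx1, Cdx2 and Sis were at 0 in every library. Of 8 kidney tubule markers the 1 tested was not called (9.13 to 14.9 CPM in knockout libraries, 12.5 to 14.6 CPM in wild type), and Aqp2, Kap, Slc12a1 and Slc22a6 were at 0. The part of these cell types in the results below was not tested, and in whole liver RNA fewer cells of a type and less RNA per cell cannot be told apart.

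Ugt2b1 and Ugt2a3 were lower in knockout liver, and the most abundant UGT genes beside them in the same cluster were not called. Of the 21 UGT genes, 13 had enough counts to be tested. In edgeR's quasi-likelihood test at an adjusted p under 0.05, 0 UGT genes rose and 3 fell, namely Ugt2b1, Ugt2a3 and Ugt2b38, while 5 had an unadjusted p under 0.05. Of all 13204 genes tested, 10.4% rose and 10.7% fell. Of the 21 SULT genes, 7 were tested, 0 rose and 0 fell, and 2 had an unadjusted p under 0.05. The median log2 fold change, knockout over wild type, was 0.04 over the tested UGT genes, -0.13 over the tested SULT genes and -0.01 over all tested genes. Without wild-type replicate 4, where 17.8% of 13777 tested genes rose and 17.5% fell, the UGT genes gave 4 higher (Ugt1a1, Ugt1a6b, Ugt3a1 and Ugt3a2) and the same 3 lower, and the SULT genes gave 2 higher (Sult2a7 and Sult1e1) and 0 lower.

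**Figure D1:**
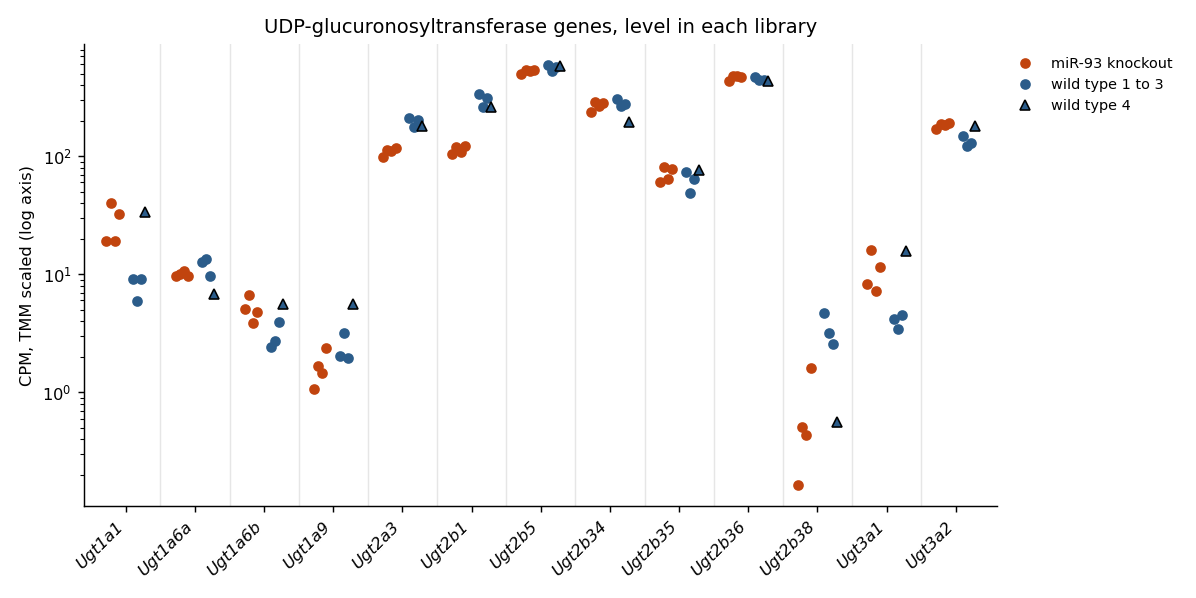
Level of each of the 13 tested UGT genes (x axis) in each library, in CPM after TMM scaling on a log axis; orange points are the 4 knockout libraries, blue points wild-type replicates 1 to 3 and the black-edged triangle wild-type replicate 4. Ugt2b1 and Ugt2a3 have every knockout point below every wild-type point, while for Ugt1a1 and Ugt3a1 wild-type replicate 4 lies among the knockout points.

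The Ugt2 genes, which act mainly on steroids and bile acids, lie side by side on chromosome 5 in the order Ugt2b34, Ugt2b1, Ugt2b35, Ugt2b36, Ugt2b5, Ugt2b37, Ugt2a3, Ugt2b38, Ugt2a1 and Ugt2a2, with Sult1b1, Sult1d1 and Sult1e1 next in line. Ugt2b1 was measured at 104, 119, 108 and 122 CPM in knockout, against 336, 263, 313 and 261 CPM in wild type. The 2 groups did not overlap, and the lowest wild-type library was above the highest knockout library by a wide margin. Ugt2b1 fell by 1.37 on the log2 scale (SE 0.141, 95% interval -1.68 to -1.06, adjusted p = 8.02e-05). Ugt2a3, whose human counterpart glucuronidates bile acids, was measured at 98.1, 114, 110 and 116 CPM in knockout, against 210, 176, 203 and 179 CPM in wild type. Again no knockout library reached the level of any wild-type library, and Ugt2a3 fell by 0.81 on the log2 scale (SE 0.129, adjusted p = 0.00152). Without wild-type replicate 4 the changes were -1.42 for Ugt2b1 and -0.83 for Ugt2a3. Scaled by library size only, which moved the median of all genes to 0.54, neither was called, at -0.84 for Ugt2b1 (adjusted p = 0.216) and -0.26 for Ugt2a3 (adjusted p = 0.664).

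The promoter windows of Ugt2b1 and Ugt2a3, which fell and are not adjacent in the cluster, are shown with that of Ugt1a1, described below. The letters of known regulatory motifs in them can be compared. Each runs from 250 bases before to 50 bases after the start of the gene in RefSeq (build GRCm38.p6), 5' to 3' on the gene's strand, with motif matches in capitals. Their places are chr5:86926454-86926753 on the minus strand for Ugt2b1, chr5:87337146-87337445 on the minus strand for Ugt2a3 and chr1:88211709-88212008 on the plus strand for Ugt1a1.
Ugt2b1: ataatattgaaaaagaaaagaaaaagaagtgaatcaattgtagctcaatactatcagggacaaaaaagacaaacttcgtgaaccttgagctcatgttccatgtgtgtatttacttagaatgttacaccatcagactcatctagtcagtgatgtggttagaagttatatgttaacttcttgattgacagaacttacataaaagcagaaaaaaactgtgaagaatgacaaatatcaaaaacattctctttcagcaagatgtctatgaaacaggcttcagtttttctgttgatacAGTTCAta
Ugt2a3: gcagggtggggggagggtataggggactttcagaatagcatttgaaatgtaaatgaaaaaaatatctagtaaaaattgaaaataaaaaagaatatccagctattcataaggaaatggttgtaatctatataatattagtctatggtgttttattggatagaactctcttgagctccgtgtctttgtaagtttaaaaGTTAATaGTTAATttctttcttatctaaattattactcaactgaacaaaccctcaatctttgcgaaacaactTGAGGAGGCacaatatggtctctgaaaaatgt
Ugt1a1: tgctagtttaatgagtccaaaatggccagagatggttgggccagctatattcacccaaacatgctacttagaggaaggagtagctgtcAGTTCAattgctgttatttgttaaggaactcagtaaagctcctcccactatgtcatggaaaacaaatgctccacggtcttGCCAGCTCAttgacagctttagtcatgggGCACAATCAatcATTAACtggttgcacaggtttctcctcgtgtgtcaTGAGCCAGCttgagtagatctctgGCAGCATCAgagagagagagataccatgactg
The motifs searched on both strands were GTTAAT (hepatocyte nuclear factor 1), GCGTG (dioxin response element core), TGANNNNGC (antioxidant response element core), TGAACT (receptors CAR and PXR), TTCNNNGAA (STAT5) and the direct repeat 1 of nuclear receptors. In the windows shown no matches overlapped one another. The Ugt2b1 window held a single match, AGTTCA after the start site. Ugt2a3 held GTTAAT at 2 places and TGAGGAGGC once. Ugt1a1 held 4 matches to TGANNNNGC, with ATTAAC and AGTTCA once each. The table held 39 windows of 36 of the 42 members. GTTAAT was in 13 of these 39 windows, against 7.10% of all 32851 windows. TGAACT was in 11 (14.0% of all), TGANNNNGC in 13 (41.3%), GCGTG in 6 (32.4%), TTCNNNGAA in 2 (8.30%) and the direct repeat 1 in 0 (0.0396%). Many of these members are recent copies of one another, so their windows are not independent, and a match is a stretch of letters, not evidence of binding.

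Ugt2b38 was scarce, with 2, 6, 6 and 21 counts in knockout, against 37, 23, 17 and 1 in wild type. That is 0.163, 0.505, 0.438 and 1.60 CPM in knockout, against 4.67, 3.16, 2.58 and 0.562 CPM in wild type, and the groups overlapped through wild-type replicate 4. It fell by 2.14 on the log2 scale (SE 0.613, adjusted p = 0.0300). This call was lost when any one of 6 of the 8 libraries was left out, all but knockout replicate 4 and wild-type replicate 4, with adjusted p between 0.0583 and 0.0984. Reads of Ugt2b38 are also hard to place. Of the 50-base stretches in its transcripts, 62.6% occur in no other gene, and the gene it shares most with is Ugt2b5, for which the share is 58.3%. For Ugt2b1 it is 100% and for Ugt2a3 95.5%. The likeness runs into the promoters, which matched at 84.2% of aligned positions between Ugt2b38 (chr5:87424154-87424453, minus strand) and Ugt2b5 (chr5:87140291-87140590, minus strand). They are shown because the pair had unlike levels over letters that match at most positions, with capitals for bases not matched in the other.
Ugt2b38: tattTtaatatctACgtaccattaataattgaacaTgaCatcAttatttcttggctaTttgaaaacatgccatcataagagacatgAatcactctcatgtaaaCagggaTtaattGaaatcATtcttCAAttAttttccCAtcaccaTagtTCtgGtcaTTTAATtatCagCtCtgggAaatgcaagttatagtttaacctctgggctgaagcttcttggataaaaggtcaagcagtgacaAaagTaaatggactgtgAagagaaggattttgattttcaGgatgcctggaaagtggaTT
Ugt2b5: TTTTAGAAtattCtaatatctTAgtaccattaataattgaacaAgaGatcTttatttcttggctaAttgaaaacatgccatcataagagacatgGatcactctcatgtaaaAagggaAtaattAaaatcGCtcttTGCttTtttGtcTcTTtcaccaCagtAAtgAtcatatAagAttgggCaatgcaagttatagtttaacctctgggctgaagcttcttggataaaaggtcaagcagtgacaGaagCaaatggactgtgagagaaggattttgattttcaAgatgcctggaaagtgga
Ugt2b37, whose promoter matched that of Ugt2b38 at 86.9% of positions, had 0, 1, 4 and 3 counts in knockout, against 6, 13, 4 and 4 in wild type, and was too low for the main test.

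The other Ugt2b genes were not called. Ugt2b5, the most abundant UGT gene per length, was measured at 495, 534, 530 and 539 CPM in knockout, against 593, 532, 575 and 577 CPM in wild type (log2 fold change -0.12 ± 0.120 SE, 95% interval -0.38 to 0.14, adjusted p = 0.514). Ugt2b36 was measured at 433, 474, 478 and 468 CPM in knockout, against 468, 438, 442 and 437 CPM in wild type (0.05, interval -0.21 to 0.31, adjusted p = 0.795). In both genes the groups overlapped. Ugt2b34 was measured at 238, 288, 265 and 283 CPM in knockout, against 305, 267, 279 and 195 CPM in wild type (0.04, interval -0.31 to 0.38, adjusted p = 0.899). Ugt2b35 was measured at 60.1, 80.7, 63.6 and 78.2 CPM in knockout, against 72.9, 49.1, 64.2 and 76.5 CPM in wild type (0.11, interval -0.26 to 0.48, adjusted p = 0.670). The knockout values of these genes lay within or close to the wild-type range, and Ugt2a1 and Ugt2a2, best known from olfactory tissue, had no count. Only 30 exon bases of Ugt2a1 (1.17%) and 140 of Ugt2a2 (5.51%) belong to no other gene, and how reads over the shared exons were counted is not stated.

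The share of each gene in the cluster's summed counts needs no scaling between libraries, and was added after the values had been seen. Ugt2b1 took 7.25%, 7.41%, 6.96% and 7.60% of the cluster's counts in knockout, against 16.9%, 15.2%, 16.7% and 15.1% in wild type. The means were 7.31% ± 0.270 in knockout and 16.0% ± 0.949 in wild type (SD, n = 4 each; two-sided exact permutation p = 0.0286, the smallest that 70 assignments can give, and 0.0457 adjusted over 8 comparisons). Ugt2a3 took 7.06% ± 0.152 in knockout and 10.5% ± 0.276 in wild type (SD, n = 4 each; exact permutation, adjusted p = 0.0457). Wild-type replicate 4 lay with the other wild-type libraries for both genes, at 15.1% and 10.4%. Shares add up to a whole, so where Ugt2b1 and Ugt2a3 took less the other genes together had to take more. Not every other gene did. The scarce Ugt2b37 took 0.00955% in knockout and 0.0759% in wild type (means, exact permutation, adjusted p = 0.0457). Ugt2b38 took 0.0426% in knockout and 0.147% in wild type (means, exact permutation, adjusted p = 0.0653). Ugt2b36 took 29.9% ± 0.762 in knockout and 24.4% ± 1.04 in wild type, and Ugt2b34 17.3% ± 0.546 in knockout and 14.2% ± 1.98 in wild type (SD, n = 4 each; exact permutation, adjusted p = 0.0457 for both). The cluster had 17542 to 21285 counts in a knockout library and 3077 to 15759 in a wild-type library.

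**Figure D2:**
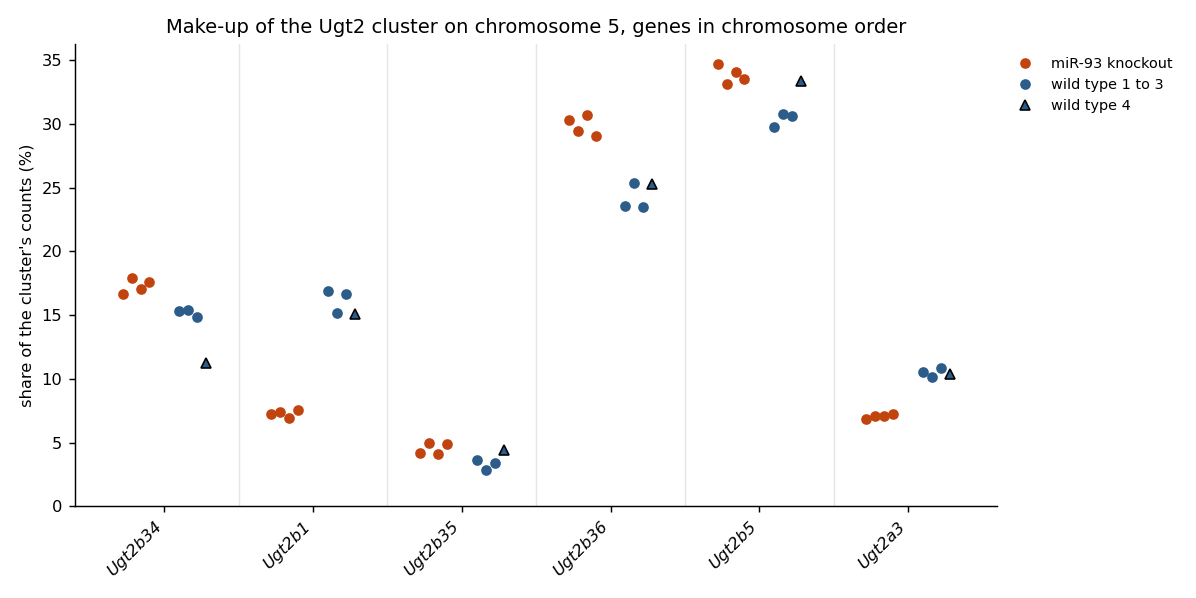
Share of the summed counts of the Ugt2 cluster (y axis, %) taken by its 6 most abundant genes, in their order along chromosome 5, with orange points for the 4 knockout libraries, blue points for wild-type replicates 1 to 3 and a black-edged triangle for wild-type replicate 4. Ugt2b1 took 6.96% to 7.60% in knockout and 15.1% to 16.9% in wild type.

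The Ugt1a genes share one locus on chromosome 1, where each has a first exon of its own joined to exons common to all. Ugt1a1, the enzyme that conjugates bilirubin, was measured at 19.2, 40.5, 19.2 and 32.3 CPM in knockout, against 9.09, 5.91, 9.10 and 33.7 CPM in wild type. Wild-type replicates 1 to 3 lay below every knockout library and replicate 4 among the knockout libraries. Over all 8 libraries the log2 fold change was 1.22 ± 0.456 (SE, adjusted p = 0.0801), and without wild-type replicate 4 Ugt1a1 rose by 1.79 (adjusted p = 0.00469). Over all 8 libraries it was called with library size only (1.95, adjusted p = 0.0109), which moved the median of all genes to 0.54, and by limma-voom (1.55, adjusted p = 0.00884). The other fits of all 8 libraries, by edgeR or DESeq2, did not call Ugt1a1 (adjusted p 0.0787 to 0.238). Ugt1a6a, which acts on small flat phenols, was measured at 9.61, 10.01, 10.7 and 9.74 CPM in knockout, against 12.8, 13.6, 9.71 and 6.75 CPM in wild type (-0.16, adjusted p = 0.593). The knockout libraries lay inside the wild-type range. Its neighbour Ugt1a6b ranged over 3.87 to 6.65 CPM in knockout livers, against 2.40 to 5.62 CPM in wild type (0.60, adjusted p = 0.181), and rose by 0.77 without wild-type replicate 4 (adjusted p = 0.0306). Ugt1a9, a phenol-conjugating enzyme in humans, ranged over 1.06 to 2.36 CPM in knockout livers, against 1.97 to 5.62 CPM in wild type (-0.79, adjusted p = 0.197). Ugt1a5 had 3, 8, 5 and 8 counts in knockout, against 10, 2, 5 and 2 in wild type, Ugt1a7c and Ugt1a10 had at most 3 in a library, and Ugt1a2 and Ugt1a8 had none.

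These values depend on how reads over the common exons were assigned, which no source used here states. In the GENCODE annotation only 17.3% of the exon bases of Ugt1a1 (385 of 2224) belong to no other gene, and the share is highest for Ugt1a6a at 49.7%. A further gene, Gm20528, a processed transcript on the opposite strand that was singled out after its values were seen, has all of its 1062 exon bases over Ugt1a exons, 922 of them over Ugt1a1. Gm20528 had 3910, 4340, 4446 and 4717 counts in knockout, against 1640, 1343, 1335 and 562 in wild type. That was 318, 365, 325 and 359 CPM in knockout, against 207, 185, 203 and 316 CPM in wild type, so no wild-type library reached the lowest knockout library. It rose by 0.59 on the log2 scale (SE 0.177, adjusted p = 0.0359), a call lost on leaving out any one library except wild-type replicate 4 (adjusted p 0.0624 to 0.105). It had 6.13 to 9.13 times the summed counts of all Ugt1a genes in the knockout libraries and 5.98 to 7.95 times in the wild-type libraries. No strand setting of the counting was stated in the sources used, so reads of Gm20528 and of the common Ugt1a exons cannot be told apart.

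The Ugt3a genes on chromosome 15 encode enzymes that in humans use sugars other than glucuronic acid. Ugt3a2 was measured at 169, 186, 183 and 190 CPM in knockout, against 147, 122, 129 and 179 CPM in wild type. Only wild-type replicate 4 reached into the knockout range. The log2 fold change was 0.34 ± 0.148 (SE, adjusted p = 0.119), and without that replicate Ugt3a2 rose by 0.47 (adjusted p = 0.000454). Ugt3a1 was measured at 8.22, 16.0, 7.23 and 11.6 CPM in knockout, against 4.17, 3.44, 4.55 and 15.7 CPM in wild type. Wild-type replicate 4 again lay among the knockout libraries, as for Ugt1a1. The log2 fold change was 0.93 ± 0.431 (SE, adjusted p = 0.148), and 1.41 without that replicate (adjusted p = 0.000207). Over all 8 libraries Ugt3a1 was called with library size only (1.61, adjusted p = 0.0234) and by limma-voom (1.16, adjusted p = 0.0351), and Ugt3a2 by DESeq2 (0.38, adjusted p = 0.0281). The other fits of all 8 libraries did not call them (adjusted p 0.147 to 0.417 for Ugt3a1 and 0.0734 to 0.230 for Ugt3a2).

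**Figure D3:**
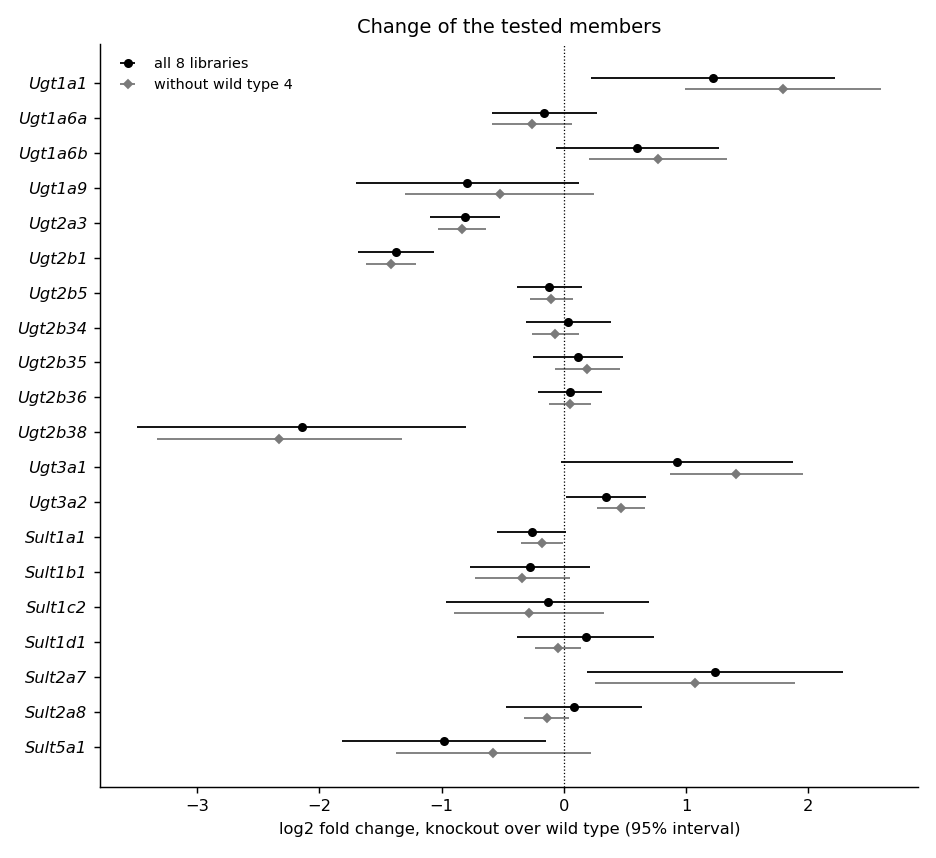
Log2 fold change, knockout over wild type, of the 13 UGT and 7 SULT genes tested, with 95% intervals, from all 8 libraries (black circles) and without wild-type replicate 4 (grey diamonds). Ugt2b1 lay at -1.37 and -1.42 in the 2 fits, and Ugt1a1 at 1.22 and 1.79.

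Among the sulfotransferases, Sult1a1, the main phenol sulfotransferase, was the most abundant per length. Sult1a1 was measured at 353, 367, 386 and 359 CPM in knockout, against 430, 406, 414 and 509 CPM in wild type. Every knockout library was below every wild-type library, yet the log2 fold change of -0.26 ± 0.130 (SE, 95% interval -0.55 to 0.02) did not pass the test (adjusted p = 0.169). Groups that did not overlap were seen in 2 of the 13 tested UGT genes (Ugt2b1 and Ugt2a3) and 2 of the 7 tested SULT genes (Sult1a1 and Sult2a7), against 30.3% of all genes tested. Sult1b1, which sulfonates thyroid hormones, was measured at 8.47, 12.3, 9.93 and 11.8 CPM in knockout, against 14.0, 9.21, 17.4 and 9.56 CPM in wild type (-0.28, adjusted p = 0.406). Sult1d1, a catecholamine sulfotransferase that humans lack as an active gene, was measured at 202, 187, 223 and 207 CPM in knockout, against 202, 225, 212 and 81.0 CPM in wild type (0.18, adjusted p = 0.662). For both the groups overlapped, and the low end of the wild-type range of Sult1d1 was replicate 4. Sult1c2 ranged over 2.36 to 4.41 CPM in knockout livers, against 1.12 to 5.43 CPM in wild type (-0.13, adjusted p = 0.842).

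Sult2a8, which sulfonates bile acids in mouse liver, was measured at 314, 343, 339 and 350 CPM in knockout, against 389, 337, 394 and 147 CPM in wild type. The log2 fold change was 0.08 (95% interval -0.47 to 0.64, adjusted p = 0.854), with the lowest value of all in wild-type replicate 4, and -0.14 without that replicate (adjusted p = 0.230). Sult2a7 was measured at 2.52, 2.27, 2.34 and 3.20 CPM in knockout, against 1.52, 1.65, 0.455 and 0 CPM in wild type. The groups did not overlap. The log2 fold change was 1.23 ± 0.477 (SE, adjusted p = 0.0882), and Sult2a7 rose by 1.07 without wild-type replicate 4 (adjusted p = 0.0373). Sult2a1 to Sult2a6, the other steroid and bile acid sulfotransferases of this kind, had no count in any library. The share of 50-base stretches found in no other gene was 37.9% for Sult2a2, 65.5% for Sult2a5, 66.8% for Sult2a1, 74.5% for Sult2a4, 91.6% for Sult2a3 and 93.4% for Sult2a6, and how reads that fit several genes were counted is not stated.

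Sult5a1 was measured at 23.7, 10.2, 11.5 and 11.6 CPM in knockout, against 16.7, 27.6, 20.02 and 57.4 CPM in wild type. Knockout replicate 1 lay inside the wild-type range and the other knockout libraries below it. The log2 fold change was -0.98 ± 0.380 (SE, adjusted p = 0.0882), and without knockout replicate 1 Sult5a1 fell by 1.35 (adjusted p = 0.0397). Without wild-type replicate 4, its highest library, the change of Sult5a1 was -0.58 and was not called (adjusted p = 0.240). Sult1e1, the oestrogen sulfotransferase, had 20, 17, 15 and 11 counts in knockout, against 0, 5, 3 and 0 in wild type, which was too few for the main test. Every knockout library had more counts than any wild-type library, and these are raw counts from libraries of unequal depth. With wild-type replicate 4 left out, Sult1e1 entered the test and rose by 1.73 (SE 0.643, adjusted p = 0.0400). It was also tested, and not called, without knockout replicate 4 or wild-type replicates 1, 2 or 3, without the filter on low counts and by DESeq2 (adjusted p 0.0683 to 0.155). Sult2b1, Sult4a1 and Sult6b1 had at most 3 counts in a library, and Sult1c1, Sult3a1, Sult3a2 and Sult6b2 had none.

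**Figure D4:**
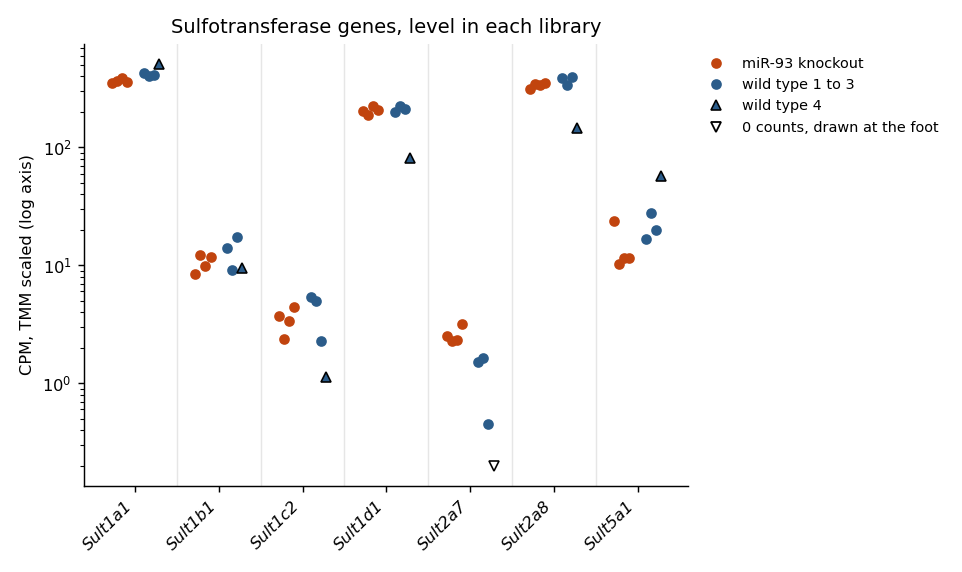
Level of each of the 7 tested SULT genes (x axis) in each library, in CPM after TMM scaling on a log axis; orange points are the 4 knockout libraries, blue points wild-type replicates 1 to 3, the black-edged triangle wild-type replicate 4, and an open triangle at the foot a library with 0 counts. Wild-type replicate 4 has the highest Sult1a1 and Sult5a1 levels and the lowest Sult1d1 and Sult2a8 levels.

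Divided by the exon length that no other gene shares, the levels of the 2 families can be set side by side. Ugt2b5 stood highest, at 282 ± 10.6 CPM per kilobase in knockout and 306 ± 14.0 in wild type, followed by Sult1a1 at 253 ± 9.998 in knockout and 304 ± 32.8 in wild type (SD, n = 4 each). In wild type these neighbours in the order lay within 1 SD of each other. Ugt2b36 came next, at 225 ± 10.03 CPM per kilobase in knockout and 217 ± 7.13 in wild type. Ugt2b1 was the next in wild type at 114 ± 14.6 CPM per kilobase, with 44.1 ± 3.46 in knockout. Sult2a8 had 96.4 ± 35.3 in wild type, with replicate 4 its lowest library, so Ugt2b1 lay within 1 SD of it there. In knockout Sult2a8 (102 ± 4.82), Sult1d1 (83.2 ± 5.96), Ugt2b34 (62.3 ± 5.23), Ugt3a2 (58.7 ± 3.04) and Ugt2a3 (51.8 ± 3.82) all stood above Ugt2b1. Ugt1a1 had 72.2 ± 27.2 CPM per kilobase in knockout and 37.6 ± 33.6 in wild type, a level that holds only if its shared exons were not counted. Summed over their members, the UGT genes made 1641, 1872, 1781 and 1860 CPM in knockout, against 2169, 1881, 2039 and 1978 CPM in wild type. The SULT genes made 909, 925, 976 and 948 CPM in knockout, against 1058, 1012, 1061 and 806 CPM in wild type. The mean sum in knockout was 0.887 times that in wild type for UGT and 0.955 times for SULT, given without a test since the members were chosen. Scaled by library size only, both ratios turned, to 1.31 for UGT and 1.36 for SULT.

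miR-93 acts by pairing its seed, bases 2 to 8, with sites in the 3' untranslated regions of messenger RNAs. The mature miR-93-5p is shown with the seed in capitals, and below it the matches to the seed (GCACTTT, capitals) among the members, with 11 bases on either side.
miR-93-5p: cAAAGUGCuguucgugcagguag
Sult1a1: gcccagagtgaGCACTTTgatgcccacta
Sult1c1: tctgttctacgGCACTTTaacaaaacacc
The match was present in 2 of 41 members with an annotated 3' untranslated region, against 12.2% (2579 of 21173) of all genes. These regions are not independent, since the Ugt1a genes share exons, and some are short, such as the 102 bases of Sult2a2. Whether the 2 shares differ was not tested. In Sult1a1 it starts at base 200 of 539 and in Sult1c1 at base 402 of 457. Sult1a1, with means of 366 ± 14.5 CPM in knockout livers and 439.9 ± 47.5 CPM in wild-type livers (SD, n = 4 each), was not called, and Sult1c1 had no count. None of the 3 genes that fell holds the match, and neither does any member that rose without wild-type replicate 4. The latter were Ugt1a1, Ugt1a6b, Ugt3a1, Ugt3a2, Sult2a7 and Sult1e1. Whether miR-93 acts on any member directly was not tested.

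Genes around the enzymes were counted in lists. Counts from all 8 libraries are to be read against the 10.4% of all tested genes that rose and the 10.7% that fell. Those without wild-type replicate 4 are to be read against 17.8% and 17.5%. Scaled by library size only, 4 of the 98 genes in these lists were called higher and none lower. Of 10 genes listed around UDP-glucuronate supply, not all of which make or carry it, 2 rose and 1 fell (2 and 2 without wild-type replicate 4). Ugdh, which oxidises UDP-glucose to UDP-glucuronate, was measured at 69.0, 73.9, 75.4 and 73.7 CPM in knockout, against 176, 163, 175 and 92.2 CPM in wild type, with no overlap. Ugdh fell by 1.06 on the log2 scale (SE 0.191, adjusted p = 0.00303). The endoplasmic reticulum transporter Slc35b1 (0.65, adjusted p = 0.0145) and the phosphoglucomutase Pgm1 (0.70, adjusted p = 0.0277) rose. Pgm1 no longer passed in 5 of the 8 fits that left out 1 library, namely wild-type replicate 2 or 3 or any of the knockout replicates 2 to 4 (adjusted p 0.0507 to 0.0892). Of 15 genes of PAPS supply and turnover, 2 rose and 3 fell (3 and 5 without wild-type replicate 4). Papss2, the main PAPS synthase of liver, was measured at 69.6, 88.7, 74.8 and 88.8 CPM in knockout, against 194, 155, 184 and 112 CPM in wild type. The groups did not overlap, and Papss2 fell by 1.01 (SE 0.180, adjusted p = 0.00294). The sulfate transporter Slc26a1 fell by 0.67 (adjusted p = 0.0153) and the sulfur dioxygenase Ethe1 by 0.83 (adjusted p = 0.0250), while Bpnt1, which breaks down the spent donor, rose by 0.77 (adjusted p = 0.00635). With 1 library left out, Slc26a1 missed the threshold in 5 of 8 fits, lacking wild-type replicate 2 or 3 or any of the knockout replicates 1 to 3 (adjusted p 0.0504 to 0.0557), and Ethe1 in 7 of 8, the exception being the fit without wild-type replicate 4 (adjusted p 0.0655 to 0.0937). The other gene that rose missed it without wild-type replicate 2 or 3 or any 1 knockout replicate (edgeR, adjusted p 0.0640 to 0.127).

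Of 6 genes that remove glucuronide or sulfate, 1 rose and 0 fell (2 and 2 without wild-type replicate 4), and that gene was Sumf1, the activator of sulfatases (0.72, adjusted p = 0.0230). Sumf1 missed the threshold in 4 of the 8 fits with 1 library left out, lacking wild-type replicate 2 or any of the knockout replicates 2 to 4 (adjusted p 0.0592 to 0.0829). The glucuronidase Gusb (-0.37, adjusted p = 0.123) and the sulfatases Arsg (0.47, adjusted p = 0.106) and Arsa (-0.31, adjusted p = 0.133) were not called. Of 11 transporters of conjugates, 2 rose and 3 fell (3 and 4 without wild-type replicate 4). The bile acid importer Slc10a1 rose by 1.00 (adjusted p = 0.00366) and the organic anion importer Slco1b2 by 0.59 (adjusted p = 0.00553). The importer Slco1a1 fell by 1.10 (adjusted p = 0.00160) and the efflux pump Abcc6 by 1.17 (adjusted p = 0.00291). The other transporter that fell missed the threshold when any 1 knockout replicate was left out (edgeR, adjusted p 0.0601 to 0.0755).

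Of 18 receptors and factors known to control UGT and SULT genes, 3 rose and 2 fell (5 and 3 without wild-type replicate 4). Nr1i3, the receptor CAR, was measured at 659, 549, 617 and 567 CPM in knockout, against 254, 291, 262 and 391 CPM in wild type, with no overlap, and rose by 1.00 (adjusted p = 0.00179). Its partner Rxra rose by 0.68 (adjusted p = 0.00376) and the fatty acid receptor Ppara by 1.08 (adjusted p = 0.000244). Nfe2l2, which encodes the antioxidant factor NRF2, fell by 1.28 (adjusted p = 0.000146). The other factor that fell missed the threshold when any 1 knockout replicate was left out (edgeR, adjusted p 0.0614 to 0.0823). Of 13 targets commonly used to report the activity of AHR, CAR, PXR and NRF2, 1 rose and 0 fell, or 6 and 5 of 16 without wild-type replicate 4. The gene that rose was Cyp3a13 (2.20, adjusted p = 5.05e-06), and Cyp3a11 (-0.86, adjusted p = 0.0655), Cyp2b9 (1.09, adjusted p = 0.0770) and Txnrd1 (0.37, adjusted p = 0.0941) came nearest among the rest.

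**Figure D5:**
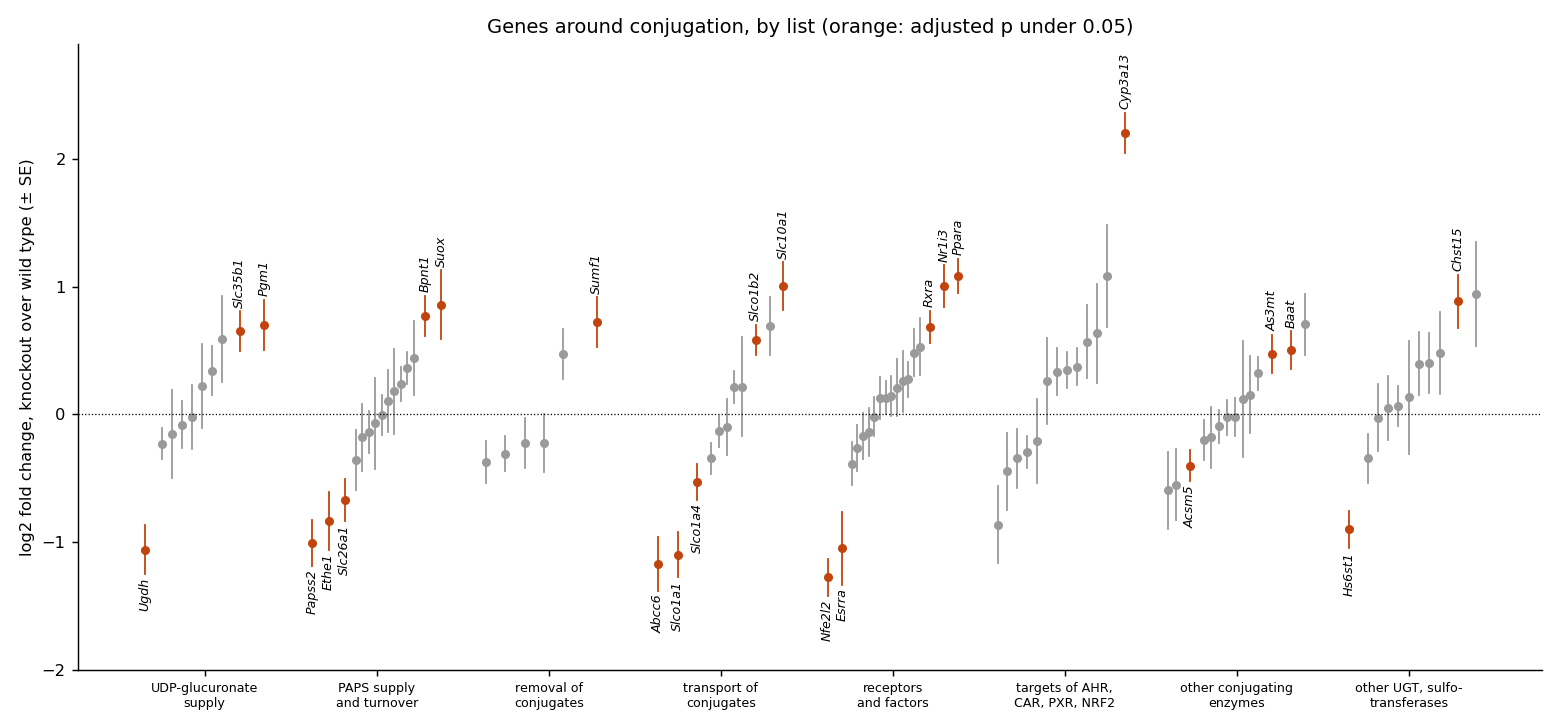
Log2 fold change, knockout over wild type, with its SE, of every tested gene in 8 lists around conjugation (x axis, genes sorted by value within a list); orange marks genes with an adjusted p under 0.05. Of 98 different genes, 14 rose and 11 fell.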

How the data were processed

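The deposited table held raw read counts per Ensembl gene. Per the submitters' processing notes, cutadapt 4.2 and STAR 2.7.10a were used with genome build mm39, in roles that the notes do not give. The counting tool, its strand setting and its treatment of shared reads are not given in the sources used here. Symbols, biotypes, exon overlaps and 3' untranslated regions came from GENCODE M21 (GRCm38), which named 52073 of 56748 IDs, and promoters and miR-93 from RefSeq (GRCm38.p6). Members and lists were chosen with earlier results of these data known.

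From the counts, genes were filtered with filterByExpr, scaled with TMM factors (1.25 to 1.30 in knockout, 0.350 to 1.07 in wild type) and tested with edgeR 4.0.16 in R 4.3.3 (robust quasi-likelihood, knockout over wild type, Benjamini-Hochberg over all 13204 genes tested, threshold 0.05), on 8 libraries with no covariate. The procedure was tested on simulated data. Alternatives were DESeq2 1.42.0 (size factors or Wald test), library size only, no filter, limma 3.58.1 with voom, a replicate block, each library left out, mitochondrial genes left out, and thinning to 1131446 nuclear counts. Members past the threshold or with a mean of at least 10 CPM are given in every library, the rest by range or count, and from each list up to 4 genes with the smallest p. Same-numbered libraries did not deviate together, so the numbers were not taken as pairs. A listed gene is not reported here.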

Additional observations from a re-analysis of the deposited data

Results flagged for a closer look

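Over the 20 tested members, the summed levels, Gm20528 and the shares of the 3 genes that fell, 52 groups of 4 libraries were checked, and 5 had a single library far from the other 3, past Dixon's 95% limit for the gap to the nearest library, and chance alone marks about 1 group in 20. Knockout replicate 1 had the highest Sult5a1 level of its group, 23.7 CPM. Wild-type replicate 4 accounted for 3 of the 5, with high levels of Ugt1a1 (33.7 CPM) and Ugt3a1 (15.7 CPM) and a low Sult1d1 level of 81.0 CPM. Wild-type replicate 1 had the highest Ugt2b36 level of its group, 468 CPM, which was close to the others in size.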

How the results depend on the processing

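Of the log2 fold changes of members under the alternatives, 282 stayed on their side of the threshold with the same sign, 13 (of 10 members, passing in neither setting) changed sign, 12 came to pass it and 11 no longer passed it. With library size only, the values of Ugt1a6a (0.36), Ugt2b5 (0.45), Sult1a1 (0.35), Sult1b1 (0.25) and Sult1c2 (0.36) turned positive, and without wild-type replicate 4 those of Ugt2b34 (-0.07), Sult1d1 (-0.05) and Sult2a8 (-0.14) turned negative. Of the other genes named, 429 stayed, 16 came to pass, 80 no longer passed and 1 reversed, Acsm5, which read 0.19 (adjusted p = 0.736) with library size only. Library size only moved the median of all genes to 0.54 and gave 2 UGT genes higher and 0 lower, 561 of all genes higher and 124 lower, and 4 of the context genes higher and 0 lower. The ratio of summed CPM then became 1.31 for UGT and 1.36 for SULT. Against that median Ugt2b1 read -0.84 (adjusted p = 0.216), Ugt2a3 -0.26 (0.664) and Ugt2b38 -1.68 (0.175), while Ugt1a1 read 1.95 (0.0109) and Ugt3a1 1.61 (0.0234). The DESeq2 Wald test gave 1 UGT gene higher, Ugt3a2 (adjusted p = 0.0281), and limma-voom 2 UGT genes higher (Ugt1a1, adjusted p = 0.00884, and Ugt3a1, 0.0351) and 1 SULT gene higher (Sult2a7, 0.0452). Ugt2b37 fell in the DESeq2 test (adjusted p = 0.00712) and without the filter (0.0270). Thinning left 8949 genes to test, without Ugt2b38, and gave 797 higher and 823 lower. The replicate block gave 643 of all genes higher and 624 lower, 6 context genes higher and 6 lower, and 2 UGT genes lower; same-numbered libraries correlated at -0.19 to -0.03 and none best with its own number. Leaving out 1 library gave 0 to 4 UGT genes higher and 2 to 3 lower, 0 to 2 SULT genes higher and 0 to 1 lower, 760 to 2446 of all genes higher and 728 to 2407 lower, and 9 to 26 context genes higher and 7 to 26 lower. The share of the cluster's counts gave an adjusted p of 0.0653 for Ugt2b38 by the exact permutation test. The cause of these changes was not tested. Depth limits the 8 members with counts that could not be tested and, in wild-type replicate 4, any level under 1.69 CPM.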

Other observations

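Of 14 other conjugating enzymes tested, 2 rose and 1 fell (4 and 4 without wild-type replicate 4). The shares over all tested genes were 10.4% higher and 10.7% lower (17.8% and 17.5% without wild-type replicate 4). Leaving out other single libraries gave 0 or 1 higher and 0 or 1 lower, with adjusted p of 0.0543 to 0.0974 for Baat, 0.0645 to 0.135 for As3mt and 0.0639 to 0.139 for Acsm5 where the call was lost. Baat, which joins bile acids to taurine or glycine, was measured at 153, 167, 166 and 171 CPM in knockout, against 126, 120, 129 and 86.6 CPM in wild type, and rose by 0.50 on the log2 scale (adjusted p = 0.0336). As3mt, the arsenic methyltransferase, rose by 0.47 (adjusted p = 0.0425). Acsm5, an acyl-CoA synthetase, fell by 0.40 (adjusted p = 0.0399) but read 0.19 with library size only, and Acsm3 read 0.70 (adjusted p = 0.0579).

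Of 11 tested UGT and sulfotransferase genes that act on lipids, proteins or glycans, 1 rose and 1 fell, with the same count when wild-type replicate 4 was left out. Over all tested genes the shares were 10.4% higher and 10.7% lower, and 17.8% and 17.5% without that replicate. Hs6st1, which sulfates heparan sulfate chains, was measured at 88.8, 97.9, 95.9 and 94.1 CPM in knockout, against 148, 179, 159 and 220 CPM in wild type, and fell by 0.90 (adjusted p = 0.00180). Chst15, which sulfates chondroitin sulfate, was measured at 8.87, 8.41, 8.47 and 8.60 CPM in knockout, against 3.28, 5.22, 5.31 and 5.06 CPM in wild type, and rose by 0.88 (adjusted p = 0.0125). Gal3st1, which makes sulfatide, read 0.94 (adjusted p = 0.120) and Tpst1, a protein tyrosine sulfotransferase, -0.35 (adjusted p = 0.226).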
